A study of Mus musculus with 6 samples.

Results

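Long intergenic RNAs (lincRNAs), antisense RNAs and RNAs from bidirectional promoters were compared between tumour-infiltrating CD8+ T cells with a guide against Elovl1 (sgElovl1) and with a non-targeting guide (sgNT). Members were all genes that GENCODE M21 types as lincRNA, antisense or bidirectional_promoter_lncRNA, with a total of at least 30 counts over the 6 libraries. The RNAs Kcnq1ot1, Lncpint, Malat1, Neat1, Tug1, Norad, Gas5, Mir155hg and Pvt1 were left out by name. This gave 666 of the 55471 genes in the tables: 278 lincRNAs, 333 antisense RNAs and 55 bidirectional promoter RNAs. The tables held 8766 genes of these 3 types, and 2360 of them had at least 1 count.

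All cells were OT-I CD8+ T cells with a knock-in of Cas9, which carry one receptor for an ovalbumin peptide, transduced with a lentiviral vector that marks cells with CD90.1. They were transferred into mice with orthotopic KPC_OVA tumours, a pancreatic ductal adenocarcinoma (PDAC) line that makes ovalbumin, and every recipient was given anti-PD-1 from the next day. On day 7 the CD90.1+ cells were sorted from the primary tumour, 3 libraries per guide. The RNA of sgElovl1 replicates 1 and 2 came from 2 tumours each, that of the other 4 libraries from 1 tumour. The genotype label speaks of a CRISPR library, and the extraction protocol of a vector with a single non-targeting or Elovl1 guide. The study's mice were young adults, taken without selection for sex. That holds for all its experiments, and the study does not give the sex of the mice behind these 6 libraries.

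By the usual definition a lincRNA lies between protein-coding genes and an antisense RNA overlaps a gene on the opposite strand. A bidirectional promoter RNA starts next to a coding gene and is read away from it. Not every member kept to these positions. Most are spliced and polyadenylated like messenger RNA but are present at few copies per cell. Some act on the chromatin around their own gene, some host microRNAs or small nucleolar RNAs, a few encode short peptides, and for most no function is known. In lymphocytes such RNAs are known to follow activation and differentiation closely.

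Between 21980273 and 26165380 counts were assigned to genes per library, and 15618 to 18688 genes had a count. Elovl1, the targeted gene, was at 84.5 CPM (counts per 1e6, TMM-normalised) in sgElovl1 and 272 CPM in sgNT, a log2 fold change of -1.69 (edgeR quasi-likelihood test, adjusted p = 8.71e-05). The summed level of 8 T cell markers was 12380 to 13920 CPM in sgElovl1 and 15380 to 15800 CPM in sgNT. Its genes went both ways: Cd3e was called higher, by a log2 fold change of 0.40, and Cd8a, Cd8b1 and Trac were called lower, with -0.45, -0.49 and -0.55. Foxp3, of regulatory T cells, was called lower (-1.67), and Csf3r, of neutrophils, was called higher, at 0.47 to 1.1 CPM against 0 in each sgNT library. Markers of macrophages and monocytes summed to 91.8 to 247 CPM in sgElovl1 and 42.8 to 59.7 CPM in sgNT, with 2 of the 7 tested called higher and none of the 8 at 0. Tumour epithelium markers (6 genes, none at 0, none called) stood at 32.5 to 53.2 CPM in the first 2 libraries of each group and at 320 and 962 CPM in the third library of sgElovl1 and of sgNT. Mitochondrially encoded messenger RNAs were higher in sgElovl1, at 12430 ± 2798 CPM against 2929 ± 1285 CPM (SD, n = 3). The part of these differences in the results that follow was not tested. In bulk samples, fewer cells that make an RNA and less of it per cell cannot be told apart.

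Sequences are shown for the members whose results are described in most detail. Coordinates are those of GRCm38 (mm10), genes from GENCODE M21, sequences from RefSeq on GRCm38.p6. Mir17hg (chr14:115042879-115046727, plus strand) is the only called member that hosts microRNAs, so 6 of its mature microRNAs are printed 5′ to 3′ with the seed, bases 2 to 8, in capitals. miR-17-5p and miR-20a-5p share 1 seed, miR-19a-3p and miR-19b-3p share another, and miR-18a-5p and miR-92a-3p each have their own.
mmu-miR-17-5p: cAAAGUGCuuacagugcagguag
mmu-miR-20a-5p: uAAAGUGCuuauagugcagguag
mmu-miR-18a-5p: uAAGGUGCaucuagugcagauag
mmu-miR-19a-3p: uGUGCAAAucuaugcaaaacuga
mmu-miR-19b-3p: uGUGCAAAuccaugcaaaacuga
mmu-miR-92a-3p: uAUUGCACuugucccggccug

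Promoter windows of 250 bases before to 50 bases after the RefSeq start are shown for Mirt1, the member with the smallest p, for 4632427E13Rik, the called bidirectional promoter RNA with the larger change, and for 1810058I24Rik, the most abundant member that fell. The windows lie at chr19:53464747-53465046 (minus strand), chr7:92741410-92741709 (minus strand) and chr6:35252460-35252759 (plus strand), and their starts are 0, 9 and 56 bases from the GENCODE starts. Capitals mark matches, on either strand, to the core of the TATA box (TATAAA), of the CCAAT box (CCAAT), of the Sp1 site (GGGCGG), of the AP-1 site (TGANTCA) or of the E-box (CACGTG). The Mirt1 window holds 1 TGANTCA match, that of 4632427E13Rik 1 CCAAT and 1 GGGCGG match, and that of 1810058I24Rik 4 GGGCGG matches, 2 of which overlap.
Mirt1: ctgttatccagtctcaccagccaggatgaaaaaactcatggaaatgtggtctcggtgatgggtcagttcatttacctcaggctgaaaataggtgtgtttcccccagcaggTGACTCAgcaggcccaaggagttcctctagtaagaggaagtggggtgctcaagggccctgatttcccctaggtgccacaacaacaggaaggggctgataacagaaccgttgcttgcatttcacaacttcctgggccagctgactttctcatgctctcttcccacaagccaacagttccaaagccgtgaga
4632427E13Rik: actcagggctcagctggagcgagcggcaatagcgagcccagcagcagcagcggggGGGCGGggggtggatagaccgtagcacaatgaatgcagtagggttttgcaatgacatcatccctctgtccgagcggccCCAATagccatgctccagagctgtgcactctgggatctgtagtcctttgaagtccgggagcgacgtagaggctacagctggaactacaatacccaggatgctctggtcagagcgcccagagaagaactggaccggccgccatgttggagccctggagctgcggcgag
1810058I24Rik: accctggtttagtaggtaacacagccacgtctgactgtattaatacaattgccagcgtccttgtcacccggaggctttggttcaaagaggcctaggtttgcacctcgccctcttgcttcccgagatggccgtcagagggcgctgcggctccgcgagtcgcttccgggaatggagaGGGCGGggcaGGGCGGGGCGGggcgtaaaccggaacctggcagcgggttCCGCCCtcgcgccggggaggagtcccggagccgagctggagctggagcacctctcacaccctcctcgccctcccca

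Of the 666 members, 491 had enough counts to be tested. Levels were low: the median tested member had 1.15 CPM, 274 of the 666 reached 1 CPM, 48 reached 10 CPM and 5 reached 100 CPM. The 175 members that were not tested had mean levels of 0.188 to 0.708 CPM, and 99 of them had the higher mean in sgElovl1. Almost every member was detected in each library, from 641 members in sgNT replicate 2 to 662 in sgElovl1 replicate 1. One member had no count in any sgElovl1 library and none lacked counts in all sgNT libraries.

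AW112010 outweighed all other members together. This RNA of activated immune cells, known to encode a short protein from a non-AUG start, made up 55.3 to 67.5% of the summed member level in each library. It was at 3559, 3391 and 4202 CPM in sgElovl1 and at 3783, 2968 and 4722 CPM in sgNT, so that the groups overlapped. Its log2 fold change was -0.04 with an SE of 0.18 (edgeR adjusted p = 0.90).

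Between the guides, 44 members were called higher in sgElovl1 and 6 lower by edgeR's quasi-likelihood test at a Benjamini-Hochberg adjusted p under 0.05 over all 12546 tested genes. That is 8.96% higher and 1.22% lower, beside 8.64% of all tested genes called higher and 5.13% called lower (13.8% called in either direction). Members were of much lower level than the tested genes as a whole, with a median of 1.15 CPM against 20.1 CPM. Among members up to 2.0 CPM, 22 of 327 (6.73%) were called higher and 3 lower, and among protein-coding genes up to that level 61 of 1329 (4.59%) higher and 4 lower. At an unadjusted p under 0.05, 83 of the 491 tested members were higher and 22 lower, beside 2187 and 1847 of all 12546 tested genes. The groups did not overlap in 139 members (28.3%), against 37.1% of all tested genes, and in each of the 50 called members. The counts depended on single libraries: 10 members (1.89%) were called higher without sgElovl1 replicate 1, 13 (2.43%) without sgElovl1 replicate 2, 13 (2.39%) without sgNT replicate 2 and 28 (5.11%) without sgNT replicate 3. In the same fits 2.95%, 2.15%, 2.55% and 7.08% of all tested genes were called higher. Members called lower came to 0, 0 and 0 without the first 3 of these libraries and to 1 without sgNT replicate 1. In those fits 0.623%, 0.323%, 0.488% and 1.34% of all tested genes were called lower. In all, 10 of the 50 calls were kept whichever library was left out. Without the third library of both groups, which carried the most tumour epithelium RNA, 50 members (9.58%) were called higher and 15 (2.87%) lower, beside 15.4% and 16.1% of all tested genes.

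**Figure D1:**
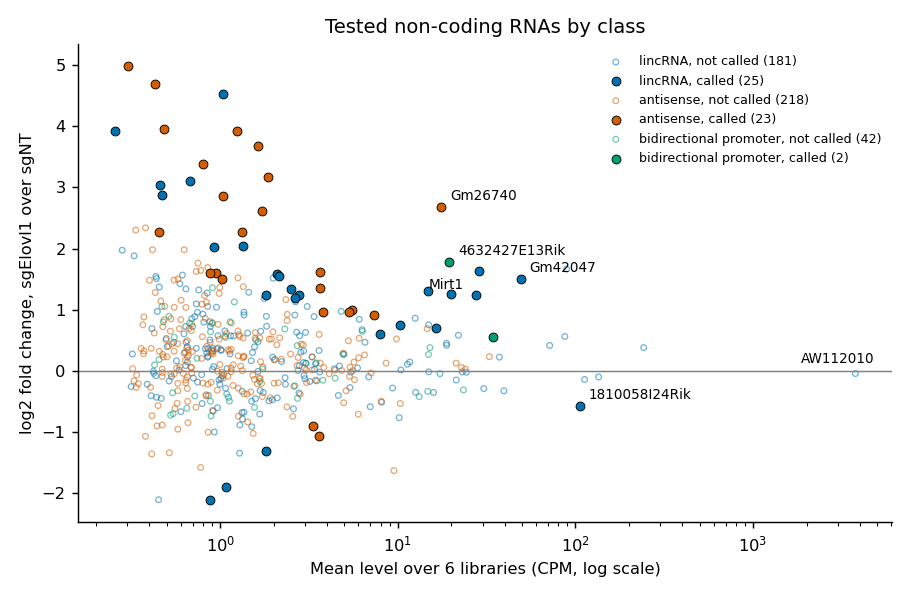
Log2 fold change of sgElovl1 over sgNT (vertical axis) against the mean level over the 6 libraries in CPM (horizontal axis, log scale) for the 491 tested members, coloured by class, with the 50 called members filled. Of the called points 44 lie above 0 and 6 below, and AW112010, far to the right, lies at -0.04.

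The whole distribution was shifted upward. The median log2 fold change of the tested members was 0.24 (quartiles -0.16 and 0.73), with 317 of 491 (64.6%) above 0, beside -0.004 over all tested genes and -0.023 over tested protein-coding genes. Without sgNT replicate 1 the member median was 0.37, and the SD of the library medians of members within a group was 0.14. Over all 6 libraries the median log2 fold change was 0.27 for lincRNAs, 0.24 for antisense RNAs and 0.16 for bidirectional promoter RNAs. Level moved with this shift: members up to 2.0 CPM had a median of 0.31 (n = 327), and protein-coding genes up to that level had 0.17 (n = 1329). Above 2.0 CPM the medians were 0.13 for 164 members and -0.035 for 9873 protein-coding genes. By class, 21 of 206 lincRNAs were called higher and 4 lower, 21 of 241 antisense RNAs higher and 2 lower, and 2 of 44 bidirectional promoter RNAs higher and none lower. The bidirectional class gave 4 higher and 1 lower at an unadjusted p under 0.05, beside 2187 and 1847 of all 12546 tested genes. DESeq2 called 2 of this class higher and none lower.

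For 2 further non-coding types of the annotation the medians were larger, given as a description. TEC genes, which are unspliced regions with signs of transcription that await experimental testing, had a median log2 fold change of 1.59 with 72 of 225 called higher and none lower. At an unadjusted p under 0.05, 130 of them were higher and none lower, beside 2187 and 1847 of all 12546 tested genes. Sense intronic RNAs, which lie within introns, had a median of 1.48 with 11 of 28 called higher. Among the members, those of a single exon block had a median of 0.38 (n = 99), those of 2 or 3 blocks 0.22 (n = 223) and those of 4 or more 0.23 (n = 169).

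**Figure D2:**
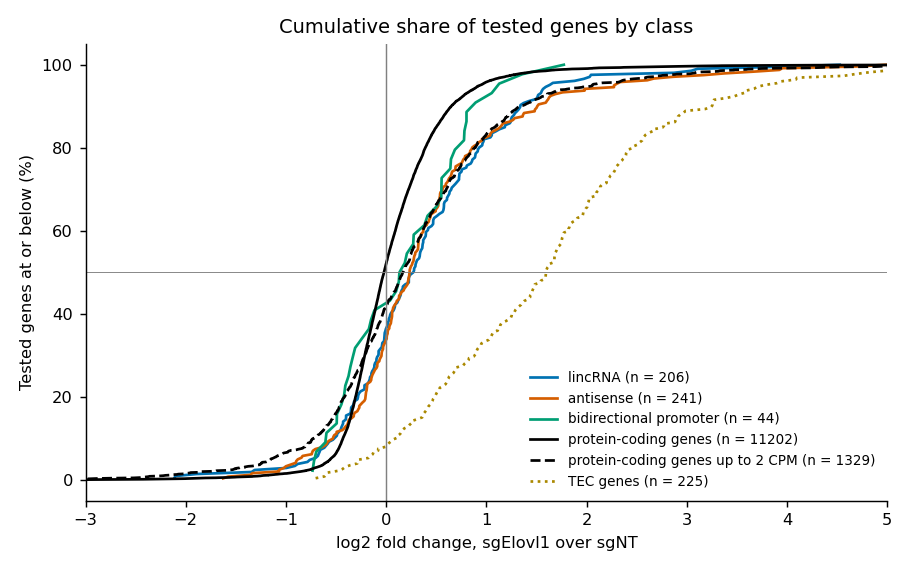
Cumulative share of tested genes in per cent (vertical axis) at or below each log2 fold change (horizontal axis), for the 3 member classes, all protein-coding genes, protein-coding genes up to 2 CPM and TEC genes. The member curves lie close to that of protein-coding genes of low level, to the right of that of all protein-coding genes and far to the left of that of TEC genes.

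The share of members called higher differed with exonic length, which is given as counts with no test. The members were divided by exonic length into 3 sets of like size. Of the longest set, over 2524 exonic bases, 28 of 164 (17.1%) were called higher, against 11 of 163 (6.75%) in the middle set and 5 of 164 (3.05%) in the shortest set, up to 1305 bases. The medians were 0.45, 0.15 and 0.06. Up to 2.0 CPM the same order held, with 12%, 7.83% and 1.67% called higher and medians of 0.51, 0.28 and 0.09. Over all protein-coding genes and the same bounds, 9.66%, 2.12% and 5.11% were called higher from long to short. Protein-coding genes up to 2.0 CPM showed no such order over the same bounds, with 4.15%, 6.58% and 4.10% called higher. With a per-library offset for the trend of level with gene length, 12.2%, 7.36% and 3.05% of the members were called higher.

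The summed level of all members was 6641 ± 276 CPM in sgElovl1 and 5838 ± 886 CPM in sgNT (SD, n = 3), and the groups overlapped because AW112010 varied. Without AW112010 the lincRNAs summed to 2123, 1891 and 1831 CPM in sgElovl1 and to 1620, 1344 and 1486 CPM in sgNT. Antisense RNAs summed to 671, 636 and 602 CPM against 542, 456 and 486 CPM. Bidirectional promoter RNAs summed to 228, 224 and 218 CPM against 193, 160 and 172 CPM. In these 3 sums each sgElovl1 library stood above each sgNT library, given as a description with no test. Gm26917 and Gm42418, known to collect reads of ribosomal RNA, are among the members. Without them and the 3 most abundant members, the rest summed to 2357, 2197 and 2112 CPM in sgElovl1 and to 1920, 1596 and 1755 CPM in sgNT.

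**Figure D3:**
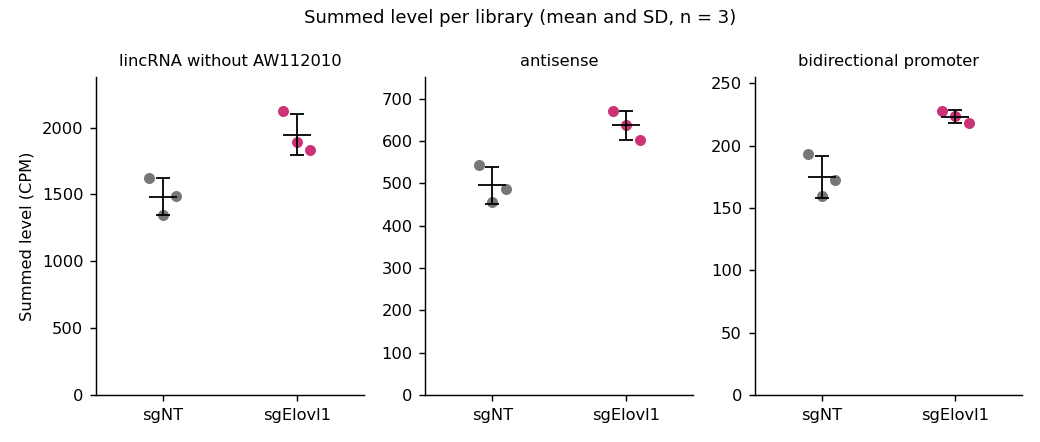
Summed level per library in CPM (vertical axis, from 0) of lincRNAs without AW112010, antisense RNAs and bidirectional promoter RNAs, with a point per library and the mean and SD of 3 libraries per group. The sgElovl1 points lie above the sgNT points in each panel, for antisense RNAs at 602 to 671 CPM against 456 to 542 CPM.

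Among RNAs known from lymphocytes and inflammation, 7 of the 17 listed were members, 5 were tested, and 1 was called, Mirt1. Mirt1 (chr19:53443230-53464796), named for its rise in the infarcted heart, was at 43.4, 45.4 and 40.8 CPM in sgElovl1 and at 15.8, 11.1 and 14.9 CPM in sgNT. The libraries of each group lay close together and far from those of the other. Its log2 fold change was 1.63 with an SE of 0.15 (edgeR adjusted p = 0.000449), and the call was kept without each library in turn, with an adjusted p of at most 0.0064. Its counts were fractional in all 6 libraries, that is, RSEM divided some reads between Mirt1 and other genes. The nearest protein-coding gene, the splicing factor gene Smndc1, lies 52652 bases away, and its log2 fold change of -0.28 did not pass (adjusted p = 0.14).

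The other tested RNAs of that list did not pass the test, and none reached an unadjusted p under 0.05. Gm14005 (Morrbid), named here after its values were seen and known to hold down the cell death gene Bcl2l11, was at 16.4, 18.2 and 16.5 CPM in sgElovl1 and 19.3, 18.05 and 15.3 CPM in sgNT. Lockd, which lies next to the cell cycle inhibitor gene Cdkn1b, was at 26.7, 20.4 and 35.4 CPM against 39.5, 30.1 and 30.9 CPM, and was called lower with both replicates 3 left out (adjusted p = 0.030). Ifngas1, which lies next to the interferon gamma gene Ifng, was at 0.77, 1.28 and 0.96 CPM against 0.77, 0.39 and 0.25 CPM, with a log2 fold change of 1.09 ± 0.52 (SE; edgeR adjusted p = 0.17). Ifng itself, at 386 and 370 CPM, had a log2 fold change of 0.06.

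MicroRNA hosts were found by position as well as by name. Outside chromosome 18, which holds 14 members and was left out of these counts, 41 mature microRNAs lie on the same strand within 13 members. Of these 13 hosts 8 were tested, all 8 had a positive log2 fold change (median 0.78, lowest 0.40), and 1, Mir17hg, was called. Mir17hg carries the miR-17-92 cluster, whose microRNAs are known to promote lymphocyte growth and survival. It was at 3.73, 3.02 and 2.88 CPM in sgElovl1 and at 2.00, 0.624 and 0.662 CPM in sgNT. All sgElovl1 libraries were above all sgNT libraries, the closest being sgNT replicate 1. The log2 fold change was 1.55 ± 0.45 (SE; edgeR adjusted p = 0.043), and it was called in 1 of the 6 fits that left a library out. The call was also lost with the length offset (adjusted p = 0.090) and with both replicates 3 left out (0.052). These counts are of the host RNA; the mature microRNAs printed above were not measured.

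None of 5 tested small nucleolar RNA hosts was called by edgeR, and 2 of them were so at an unadjusted p under 0.05. All 5 had positive log2 fold changes, from 0.29 to 1.05 with a median of 0.73. Snhg6 was at 6.12, 3.97 and 2.42 CPM in sgElovl1 and 2.39, 1.91 and 1.74 CPM in sgNT, a log2 fold change of 1.05 (adjusted p = 0.066 with edgeR, 0.041 with DESeq2 and 0.013 with both replicates 3 left out). Snhg20 was at 20.8, 18.4 and 17.0 CPM against 17.3, 8.03 and 7.99 CPM, a log2 fold change of 0.75 (adjusted p = 0.12 with edgeR, 0.037 with DESeq2, 0.032 with the replicate number as a block and 0.0083 without sgNT replicate 1). Snhg12 differed by 0.73 on the log2 scale (adjusted p = 0.20).

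RNAs of X inactivation and imprinting were not called, and none of the 4 tested reached an unadjusted p under 0.05. Ftx, which lies near Xist and hosts miR-374b, was at 2.77, 3.46 and 4.8 CPM in sgElovl1 and 3.83, 2.46 and 0.828 CPM in sgNT. Jpx, an activator of Xist, had a log2 fold change of 0.19 and Airn, the imprinted antisense RNA of Igf2r, one of -0.37. Among RNAs that act as scaffolds or on chromatin, 4 were tested and none was called, with 1 at an unadjusted p under 0.05. 1700020I14Rik (Cyrano), known to direct the decay of the microRNA miR-7, was at 109, 113 and 169 CPM against 158, 127 and 134 CPM, and was called lower with both replicates 3 left out (adjusted p = 0.032). 2810468N07Rik (Cerox1), known to raise subunits of respiratory complex I, was at 1.85, 2.29 and 1.6 CPM against 3.32, 3.70 and 2.61 CPM. All of its sgElovl1 libraries were lower, but its log2 fold change of -0.74 ± 0.30 (SE) did not pass the test (edgeR adjusted p = 0.11).

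The abundant members apart from AW112010 held 2 that rose and 1 that fell. Gm42047 (chr8:121833247-121841178) was at 82.9, 75.4 and 59.7 CPM in sgElovl1 and at 37.7, 18.2 and 21.4 CPM in sgNT. Its log2 fold change was 1.5 ± 0.29 (SE; edgeR adjusted p = 0.022), and its counts were fractional in each library. The call was lost with no filter (adjusted p = 0.085) and with both replicates 3 left out (0.10). Ndufb1-ps (chr12:101968090-101977068) rose by 0.55 on the log2 scale from 27.8 ± 3.98 to 40.8 ± 8.68 CPM (SD, n = 3), close to the threshold (adjusted p = 0.049). That call was lost with RLE factors (0.051), with limma-voom (0.063) and in 5 of the 6 fits that left a library out. 1810058I24Rik (chr6:35252654-35263496), known to encode a small mitochondrial peptide, was at 78.6, 77.5 and 99.3 CPM in sgElovl1 and 125, 121 and 133 CPM in sgNT. It fell by 0.57 on the log2 scale (SE 0.12, adjusted p = 0.016), and the call was lost in 4 of the 6 fits that left a library out, with an adjusted p of up to 0.11.

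The lincRNAs D930016D06Rik and Gm2682, named after their values were seen, also kept their calls without each library. D930016D06Rik was at 28.3, 28.0 and 27.9 CPM in sgElovl1 and 14.2, 9.28 and 11.8 CPM in sgNT. Gm2682 was at 21.9, 24.99 and 16.01 CPM against 8.95, 9.71 and 6.79 CPM.

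The remaining abundant members did not pass the test, though some did under another setting. Gm19585, which lies 153125 bases from Satb1, a chromatin organiser of T cells, was at 254, 239 and 330 CPM against 210, 188 and 233 CPM, with an adjusted p of 0.094 (0.031 with the length offset and 0.032 with both replicates 3 left out). Satb1 itself was called higher, by a log2 fold change of 0.65 (edgeR adjusted p = 0.0078). AU020206, 14429 bases from the signalling scaffold gene Akap13, had a log2 fold change of -0.14 while Akap13 was called higher, by 0.73. Gm26917 was at 227, 146 and 33.5 CPM in sgElovl1 and at 53.7, 41.4 and 33.3 CPM in sgNT, so that its group mean rested on 2 libraries. Its adjusted p was 0.23, and 0.0073 without sgElovl1 replicate 3. It lies on chromosome 17 next to Gm42418, both of which are known to collect reads of ribosomal RNA. Gm36723, 206800 bases from the transcriptional regulator gene Id2, differed by 0.42 on the log2 scale (adjusted p = 0.12). Gm10076, Gm33104 and 2900097C17Rik had log2 fold changes of 0.56, -0.32 and 0.23. Gm10076 was called higher by DESeq2 (adjusted p = 0.037) and with both replicates 3 left out (0.0036), and Gm33104 was called lower in the latter fit (0.047).

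**Figure D4:**
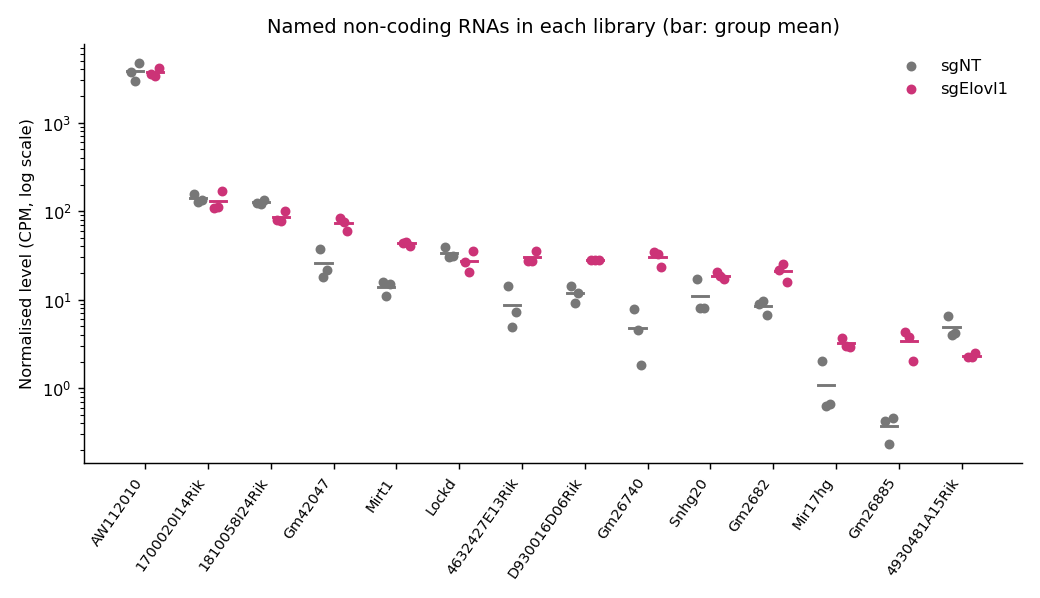
Normalised level in CPM (vertical axis, log scale) of 14 named members in each library, sgNT in grey and sgElovl1 in pink, with a bar at each group mean. Mirt1, at 40.8 to 45.4 CPM against 11.1 to 15.8 CPM, has the smallest p, and the AW112010 libraries overlap.

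Of the 10 largest rises among members of at least 1 CPM, 7 were in antisense RNAs, most of them of low level. Gm26740 (chr10:22187013-22302835) had the highest level of these: it was at 34.5, 32.8 and 23.5 CPM in sgElovl1 and at 7.88, 4.56 and 1.82 CPM in sgNT. The log2 fold change was 2.67 ± 0.54 (SE; edgeR adjusted p = 0.036), and the call was kept in 3 of the 6 fits that left a library out and lost with no filter (adjusted p = 0.086). The coding gene it overlaps on the other strand, H60b, a ligand of the receptor NKG2D, had 0.122 and 0.0138 CPM and was not tested. Gm17056, opposite Lsmem1, was at 2.35, 2.15 and 2.56 CPM against 0.213, 0.156 and 0.0828 CPM, a log2 fold change of 3.92 ± 0.47 (SE; adjusted p = 0.0014). Gm34006, opposite Scml4, was at 3.23, 2.91 and 2.7 CPM against 0.639, 0.351 and 0.455 CPM, and Scml4, a gene of the Polycomb family, had a log2 fold change of 0.04. The calls for Gm17056 and Gm34006 were kept without each library.

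Others of this set, which was chosen by the size of the rise, follow. A930001M01Rik, within Tbc1d22a, was at 2.89, 3.82 and 2.42 CPM against 0.469, 0 and 0.248 CPM. 4930478L05Rik, opposite D16Ertd472e, was at 2.73, 1.49 and 1.23 CPM against 0.383, 0.195 and 0.166 CPM, while D16Ertd472e had 346 and 344 CPM. Gm42722, opposite Pifo, rose by 2.27 on the log2 scale (edgeR adjusted p = 0.0075). Leaving out sgElovl1 replicate 1 ended the calls of A930001M01Rik (adjusted p = 0.11), 4930478L05Rik (0.070) and Gm42722 (0.065). A930001M01Rik also lost its call without sgElovl1 replicate 2 (0.13), and 4930478L05Rik without sgNT replicate 2 (0.059). The lincRNA Gm36161 (chr13:120010390-120018931) was at 1.31, 1.57 and 3.11 CPM against 0, 0.117 and 0.124 CPM, with a fitted log2 fold change of 4.53 that rests on few sgNT counts.

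4632427E13Rik (chr7:92734166-92741468) lies 135 bases from the start of Rab30, a small GTPase of the Golgi, and is read away from it. The RNA was at 27.6, 27.3 and 35.4 CPM in sgElovl1 and at 14.2, 4.95 and 7.28 CPM in sgNT, so that each sgElovl1 library was above each sgNT library. Its log2 fold change was 1.77 ± 0.38 (SE; edgeR adjusted p = 0.033, but 0.17 with both replicates 3 left out, 0.067 with the length offset and 0.11 with no filter). The call was also lost without sgElovl1 replicate 1, 2 or 3 (adjusted p = 0.14, 0.13 and 0.059) and without sgNT replicate 3 (0.066). Rab30 was at 0.061 and 0.068 CPM and was not tested.

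Of the 6 members that fell, 4 beside 1810058I24Rik met the rule for being named. 4930481A15Rik, opposite Drap1, was at 2.23, 2.26 and 2.52 CPM in sgElovl1 and at 6.56, 3.98 and 4.18 CPM in sgNT, and fell by 1.07 on the log2 scale (edgeR adjusted p = 0.030). Gm37401, opposite the GTPase gene Rhoa, was at 2.50, 2.19 and 2.29 CPM against 4.13, 4.44 and 4.47 CPM. Rhoa had a log2 fold change of -0.34 that did not pass the test (adjusted p = 0.12), and the counts of Gm37401, whose 347 exonic bases share 324 with Rhoa, were fractional in every library. Gm26520 and B930018H19Rik fell by 1.31 and 1.89 on the log2 scale. The length offset ended the calls of Gm26520 (adjusted p = 0.071) and 4930481A15Rik (0.055), and a fit with no filter that of Gm37401 (0.077). The call for B930018H19Rik was lost with the replicate number as a block (adjusted p = 0.058). Each of these 4 calls was kept in only 1 or 2 of the 6 fits that left a library out.

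The nearest protein-coding gene was taken as the one with the smallest gap between gene bodies. It overlapped on the opposite strand for 313 of 333 antisense RNAs, lay beyond 10 kb for 141 of 278 lincRNAs, and was divergent with starts within 2 kb for 28 of 55 bidirectional promoter RNAs. For 27 lincRNAs it overlapped on the opposite strand and for 11 on the same strand. For bidirectional promoter RNAs these overlaps numbered 23 and 3. In 420 pairs both genes were tested. Of the 36 called members among them, 8 (22.2%) had a neighbour called in the same direction, none in the opposite direction, and in all 8 both genes were higher in sgElovl1. Over all 420 pairs 72 neighbours (17.1%) were called, and 23.4% over the 197 pairs that share exon bases on opposite strands. Among protein-coding genes and their own nearest coding gene, 116 of 1078 (10.8%) were called in the same direction as the neighbour and 58 in the opposite one. For called coding genes that overlap their nearest coding gene on opposite strands, 13 of 221 (5.88%) had it called in the same direction. Over the 420 pairs, which share the 6 libraries, the log2 fold changes had a Spearman correlation of 0.10 and a Pearson correlation of 0.13, given as a description; it was 0.07 and 0.11 over 7869 coding pairs.

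Of the 8 pairs, 7 overlap on opposite strands and share exon bases. Among called members that share exon bases with the partner, 7 of 17 (41.2%) had a partner called with them, and among those that overlap without shared exon bases 0 of 5. Over all pairs of these sets, 46 of 197 partners (23.4%) and 3 of 39 (7.69%) were called. The study's methods name a strand-specific library service after the pre-amplification, and the strand setting of the counting was not given in the sources used here. Whether reads of an antisense RNA and of its partner were kept apart where exons overlap was not tested. Counts were fractional for 182 of 296 members (61.5%) that share exon bases with the opposite gene, for 6 of 67 (8.96%) that overlap without shared exon bases and for 34 of 287 (11.8%) without overlap. Of the 12 called members whose neighbour did not overlap, 1 had a neighbour called in the same direction. Over all 174 such pairs 22 neighbours (12.6%) were called.

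**Figure D5:**
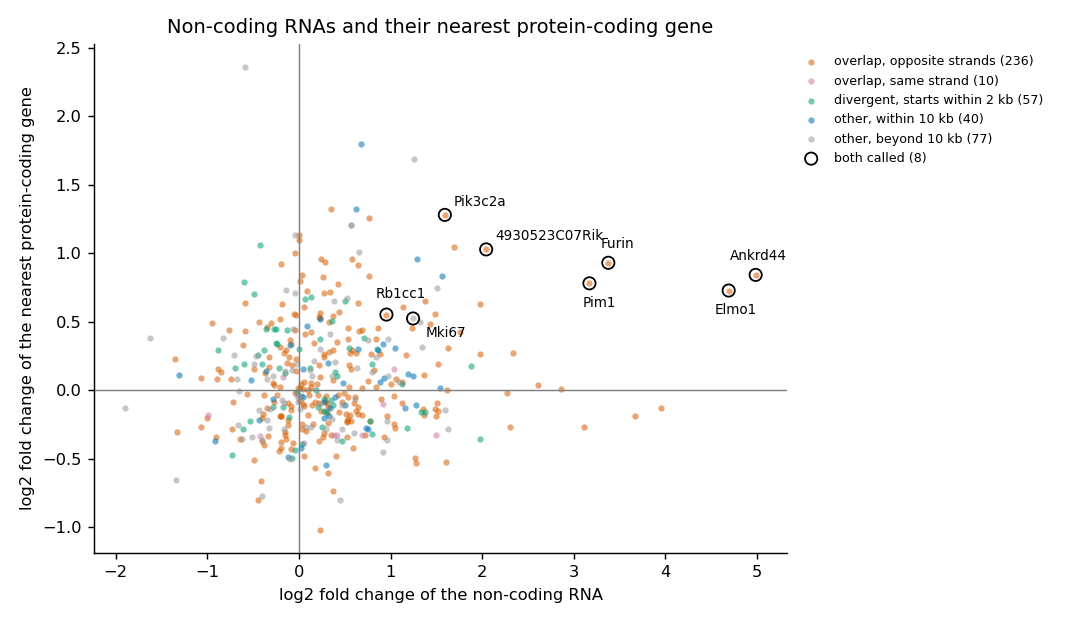
Log2 fold change of the nearest protein-coding gene (vertical axis) against that of the non-coding RNA (horizontal axis) for the 420 tested pairs, coloured by position, with the 8 pairs in which both were called circled and named by the coding gene. The circled points all lie above 0 on both axes, and the cloud as a whole shows little slope (Spearman correlation 0.10).

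The coding genes that rose with an antisense RNA include 4 with known roles in signalling or protein processing. Pim1, a survival kinase, rose by 0.78 on the log2 scale from 11.6 to 19.9 CPM, and Gm26885 on the other strand was at 4.35, 3.75 and 2.01 CPM in sgElovl1 and 0.426, 0.234 and 0.455 CPM in sgNT. Furin, the proprotein convertase, rose by 0.93 from 10.9 to 20.7 CPM, and Gm44851 was at 1.23, 1.75 and 1.42 CPM against 0.128, 0.117 and 0.166 CPM. Elmo1, which activates Rac together with DOCK proteins, rose by 0.73 from 109 to 181 CPM, and Gm32036 within it had 62 counts over the 3 sgElovl1 libraries and 2 over the sgNT libraries, a ratio of 30.2 (95% exact interval 8.01 to 255, counting error only). Ankrd44, a subunit of protein phosphatase 6, rose by 0.84, and 4930444A19Rik within it had 44 counts against 1, a ratio of 42.8 (95% exact interval 7.30 to 1730). The calls for Gm26885, Gm44851 and Gm32036 were kept without each library, and that for 4930444A19Rik in 3 of 6 fits.

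The other 4 pairs follow, of which 4732440D04Rik and Gm44777 were named after their values were seen. 4930562F07Rik was at 2.96, 1.38 and 2.15 CPM against 0.724, 0.429 and 0.414 CPM, and 4930523C07Rik on the other strand rose by 1.03 on the log2 scale. 4732440D04Rik rose by 0.96 with Rb1cc1, a gene of autophagy initiation, which rose by 0.55, and the length offset ended its own call (adjusted p = 0.12). Gm44777 rose by 1.59 with Pik3c2a, a lipid kinase gene that rose by 1.28, and the call for Gm44777 was lost whichever library was left out and with the replicate block (adjusted p = 0.066). C030029H02Rik rose by 1.25 and is the 1 member of the 8 that does not overlap its neighbour: Mki67, the proliferation marker, lies 551963 bases away and rose by 0.52.

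Of the 72 pairs with a called neighbour, both genes were called in 8, and in the others the RNA was not called. Examples of the latter in which the neighbour rose were chosen here after their values were seen. AC114539.1, which shares exon bases with Nfkb2, a subunit gene of NF-kB, was at 20.8, 23.1 and 18.8 CPM in sgElovl1 and 27.7, 27.2 and 22.9 CPM in sgNT. It had a log2 fold change of -0.31 (edgeR adjusted p = 0.15) and Nfkb2 one of 0.49 (adjusted p = 0.036). Brip1os, which shares exon bases with Ints2, was at 38.9, 35.6 and 31.9 CPM against 30.8, 29.1 and 30.5 CPM, 0.24 on the log2 scale without passing the test, and Ints2 rose by 0.57.

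RefSeq promoter windows with a start within 500 bases of the GENCODE start were found for 268 members. CpG dinucleotides per 300-base window had a median of 31.0 in 32 bidirectional promoter RNAs, 17.0 in 126 antisense RNAs and 7.0 in 110 lincRNAs, beside 7.0 over all 32851 windows of that length. GGGCGG, the motif of Sp1, was present in 75%, 54.8% and 37.3% of these classes and in 35.7% of all windows. Such windows were found for 16 of the 44 members called higher and for 4 of the 6 called lower. The 4 windows had a median of 11.5 CpG, with GGGCGG in 2. Those of the 16 members called higher had a median of 4.0 CpG, with GGGCGG in 3 (18.8%). Windows of 193 tested members that were not called had 17.0 CpG, with GGGCGG in 54.9%. Class was not held fixed between these sets. CCAAT was present in 56.2% of the windows of members called higher, 38.9% of those not called and 37.4% of all windows. TGANTCA, the AP-1 motif, was found in 12.5%, 6.74% and 7.81%, TATAAA in 6.25%, 9.84% and 13.6%, and CACGTG in 6.25%, 13.5% and 7.15%. A match of letters is a description and says nothing of binding.

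Proteins that remove or terminate such RNAs in the nucleus formed a list of 32 tested genes, with a median log2 fold change of -0.08. Called higher were 3: Zfc3h1, which links polyadenylated nuclear RNA to the exosome, by 1.04 from 16.6 to 34.1 CPM, and the Integrator subunit genes Ints6 and Ints2, by 0.64 and 0.57. Called lower were 3: Exosc3, a core subunit of the exosome, by 0.43, its cofactor Mphosph6 by 0.60 and the Integrator subunit gene Ints12 by 0.43. The other 26 did not pass the test. Over all tested genes 8.64% were called higher and 5.13% lower.

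The RNAs left out by name rose in part. Kcnq1ot1, Lncpint and Tug1 were called higher, by log2 fold changes of 2.50, 2.32 and 0.87. Malat1 and Neat1, the abundant RNAs of nuclear speckles and paraspeckles, had 1.17 and 0.89 without passing the test (edgeR adjusted p = 0.22 and 0.11).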

How the data were processed

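RNA from CD90.1+ OT-I T cells was pre-amplified (SMARTer) and sequenced in 6 libraries by a service named strand-specific. The submitters' processing notes name STAR 2.7.7a, RSEM 1.3.1 and DESeq2 1.36.0 with the mm10 genome. In the deposited tables, RSEM's expected counts are not scaled between libraries. TPM (abundance scaled for length), used here in 1 alternative, and gene lengths in bases, used for the length offset, were deposited beside them. The annotation release and the strand setting of the counting were not given in the sources used here. Of the gene IDs, 241 had no entry in GENCODE M21.

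Expected counts were rounded to whole numbers. edgeR 4.0.16 in R 4.3.3 was run on the whole table with filterByExpr (minimum count 10), TMM factors and a robust quasi-likelihood fit on group alone; p-values are two-sided, adjusted over 12546 genes. limma 3.58.1 (voom) and DESeq2 1.42.0 were alternatives. Sums over classes are CPM without TMM factors. A count was taken as fractional if over 0.005 from a whole number. The fit was tested on simulated data. With a log2 fold change of 1 put in, it called 9 of 43 members (20.9%) and 34 of 48 other genes (70.8%). With one of 2 put in, it called 26 of 48 members (54.2%) and 44 of 50 other genes (88%). With 0 put in, it called 0 of 369 members. A member that was not called can therefore still differ between the guides.

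Named were the 10 largest changes each way among called members without overlap of the groups and of at least 1 CPM, the 12 most abundant, up to 3 per list with every called one, and called members with a called neighbour, up to 5 per position class. The members and lists were chosen with earlier results of these data known. Cells of different mice were kept apart except in the 2 pools, and p-values measure the spread between these samples.

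Same-numbered libraries of the 2 groups deviated together over all genes (correlations of 0.21, 0.24 and 0.41 for numbers 1 to 3). Over the tested members alone the correlations were 0.08, 0.03 and 0.01. Because of the values over all genes, a fit with the replicate number as a block was set beside the results where it changed a call. The labels name no shared mouse or day.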

Additional observations from a re-analysis of the deposited data

How the results depend on the processing

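The median log2 fold change of the tested members stayed above 0 in every fit run, between 0.18 and 0.37 when 1 library was left out in turn. Members called higher ranged from 10 to 51 and members called lower from 0 to 7 when 1 library was left out in turn. In the same fits 2.15% to 11.0% of all tested genes were called higher and 0.323% to 10.1% lower. With replicate 3 of each group left out, which was added after seeing the data, 15 members (2.87%) were called lower, beside 16.1% of all tested genes. With the replicate number as a block, 41 members (8.35%) were called higher and 5 (1.02%) lower, and 42 of the 50 calls were kept. In that fit 8.92% of all tested genes were called higher and 4.44% lower. DESeq2 called 52 members (10.6%) higher and 9 (1.83%) lower, beside 11.1% and 8.67% of all tested genes. For limma-voom it was 45 (9.16%) and 7 (1.43%), beside 8.57% and 4.74%. The fit with a length offset gave 37 (7.54%) and 4 (0.815%), beside 5.75% and 3.48%, and kept 38 of the 50 calls. Without the 3 most abundant members, the log2 ratio of the summed level was 0.40 in place of 0.19, and 0.34 without Gm26917 and Gm42418 as well. Pairs called together numbered 8, between 1 and 8 when 1 library was left out, 1 without overlapping pairs, 5 with the length offset and 15 with replicate 3 of each group left out. No named member changed direction while called. Members under about 1 CPM rest on few counts. The causes of these differences were not tested.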
